A study of Mus musculus with 5 samples.

Results

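The neighbourhood of Irf2bp2 and Tomm20 is a stretch of mouse chromosome 8 in which peaks of the nuclear receptor RXRα were called in alveolar macrophages. It was chosen by its peaks: a peak belongs to it if the transcription start site (TSS) of Irf2bp2 or Tomm20 is the protein-coding TSS nearest to the peak's midpoint (GENCODE, mouse build GRCm38, that is mm10). By this rule it held 22 of the 4751 peaks of WT A and 50 of the 9766 of WT G, but only 1 of the 208 of KO G and 0 of the 83 of KO A. Because the peak lists themselves picked the locus, its numbers of peaks are a description and carry no test. Irf2bp2 and Tomm20 are the only coding genes with a TSS in it.

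RXRα was profiled by HT-ChIPmentation, in which chromatin bound by an antibody is tagged with sequencing adapters by Tn5 on the beads, in alveolar macrophages sorted from bronchoalveolar lavage of adult C57BL/6J mice. WT A and WT G came from CD11cCre- Rxrabfl/fl mice, whose floxed Rxra and Rxrb genes are intact, and KO A and KO G from CD11cCre+ Rxrabfl/fl littermates. The floxed alleles are thus common to both genotypes, and Cre is driven by Cd11c, which other cells such as dendritic cells also express. Peaks were called in each of the 4 libraries against 1 input from CD11cCre- Rxrabfl/fl cells, and with 2 libraries per genotype no two-sided exact permutation test can give a p below 0.333. The lists hold peaks and no expression, so neither the loss of Rxra and Rxrb nor the macrophage identity of the cells could be checked in them.

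RXRα is a ligand-activated receptor of the nucleus that binds DNA as a dimer with itself or with partners such as PPARγ, LXR and RAR. Its dimers recognise a pair of AGGTCA-like half-sites whose spacing depends on the partner (DR1, 1 base between the half-sites; DR4, 4 bases; DR5, 5 bases). Irf2bp2 encodes a co-regulator that binds IRF2 and restrains inflammatory gene expression in macrophages. Tomm20 encodes a receptor subunit of the TOM complex, the gate through which proteins made in the cytosol enter mitochondria. Both genes lie on the minus strand, with Tomm20 upstream of Irf2bp2, so a position between them is upstream of Irf2bp2 and downstream of the Tomm20 TSS.

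The neighbourhood ran from chr8:126534526-126958457, a length of 424 kb, and the TSSs of Irf2bp2 and Tomm20 in it are 352 kb apart. The Irf2bp2 gene (ENSMUSG00000051495.7) spans chr8:126588296-126593986 and the Tomm20 gene (ENSMUSG00000093904.2) chr8:126930667-126945844. Between or around them the annotation holds the antisense RNA Gm26759, which runs against Irf2bp2, and the lincRNAs Gm45805, Gm31718 (95.6 kb long) and A630001O12Rik, which lies within Gm31718 on the other strand. Overlapping WT peaks merged into 18 regions found in both WT lists, numbered R1 to R18 here along the chromosome, of 3423 such regions in the genome. Irf2bp2 was the nearest coding gene of R1 to R7, and Tomm20 that of R8 to R18.

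The DNA under the 6 regions with the best combined rank in the WT lists, which include the only region with a KO peak (R9), is given first, to show the sequence at the top of that ranking. Each line holds 101 bases centred on the summit of the WT peak with the better relative rank, on the plus strand of GRCm38 (sequence from RefSeq). Capitals mark the motif matches described below.
R2 (chr8:126566022-126566122): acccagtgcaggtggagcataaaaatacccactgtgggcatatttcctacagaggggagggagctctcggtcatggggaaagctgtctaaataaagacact
R8 (chr8:126807425-126807525): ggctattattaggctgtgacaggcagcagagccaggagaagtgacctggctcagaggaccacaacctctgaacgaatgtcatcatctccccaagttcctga
R9 (chr8:126832805-126832905): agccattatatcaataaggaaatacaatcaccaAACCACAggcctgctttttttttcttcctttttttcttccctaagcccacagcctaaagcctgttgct
R10 (chr8:126837127-126837227): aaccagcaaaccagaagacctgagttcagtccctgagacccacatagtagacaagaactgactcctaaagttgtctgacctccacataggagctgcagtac
R13 (chr8:126849557-126849657): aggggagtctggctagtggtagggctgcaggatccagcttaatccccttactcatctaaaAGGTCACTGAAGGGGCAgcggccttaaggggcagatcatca
R14 (chr8:126852355-126852455): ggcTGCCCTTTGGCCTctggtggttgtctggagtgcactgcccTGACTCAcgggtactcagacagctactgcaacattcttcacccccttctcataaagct

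The summits were scanned for the half-site motifs of RXR dimers. The scanned summit, that of the WT peak with the better relative rank, was the WT G one in every region but R11. A DR1 match (AGGTCANAGGTCA on either strand, up to 2 mismatches, within 50 bp of the summit) was found in 1 of the 18 regions, R14, where it lies 41 bp from the WT G summit on the minus strand. The WT A summit of R14 lies 189 bp from that of WT G, and the match is more than 50 bp from it. Among all both-WT regions the share with DR1 was 5.96%. A DR5 match (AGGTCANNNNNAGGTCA, up to 2 mismatches) was found in R13 alone, 18 bp from its WT G summit, against 2.48% of all both-WT regions. The WT A summit of R13 lies 574 bp from that of WT G. No region had DR4 (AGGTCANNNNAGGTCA), which 1.75% of all held. Over their whole length, 4 of the 18 regions held a DR1 match with 2 mismatches (R8, R9, R12 and R14), against 21.5% of all both-WT regions. The median width was 643 bp for the 18 regions and 574 bp for all.

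Motifs of macrophage factors were scanned without mismatches in the same window. AP-1 (TGANTCA, which reads the same on both strands) occurred in 3 regions, R1, R14 and R16, against 7.36% of all both-WT regions, and in R14 it lay 4 bp from the summit. RUNX (TGTGGTT) occurred in R9 only, against 5.87%, and the PU.1 motif GAGGAAGT in R6 only, against 4.29%. The PU.1 site lay 2 bp from the WT G summit of R6 and outside the WT A peak, whose summit was 477 bp from that of WT G. The C/EBP motif TTGCNNAA was found in none of the 18, while 10.9% of all both-WT regions held it. A match describes letters in the window and is not a binding site, and a missing one says only that these letters were not in it.

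The peaks fell into a group around Irf2bp2, a dense distal group inside Gm31718, and a few isolated sites between these groups and on the Tomm20 side of the distal one. Chaining WT peaks that lay at most 10 kb apart gave 11 groups, of which the distal one spanned 55.4 kb (chr8:126826978-126882337), from 119 to 63.5 kb downstream of the Tomm20 TSS. It held 10 of the 22 WT A peaks, 23 of the 50 WT G peaks, the KO G peak and 9 of the 18 both-WT regions. Between the outermost WT peaks of the neighbourhood, the longest stretches without a WT peak were 51.3 kb and 89.5 kb long, on the 2 sides of an isolated WT A peak upstream of Irf2bp2. No WT peak was called for 609 kb to the right of the last one, which lies within 1 kb of the Tomm20 3' end, nor over the Tomm20 gene or within 5 kb of its TSS.

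**Figure D1:**
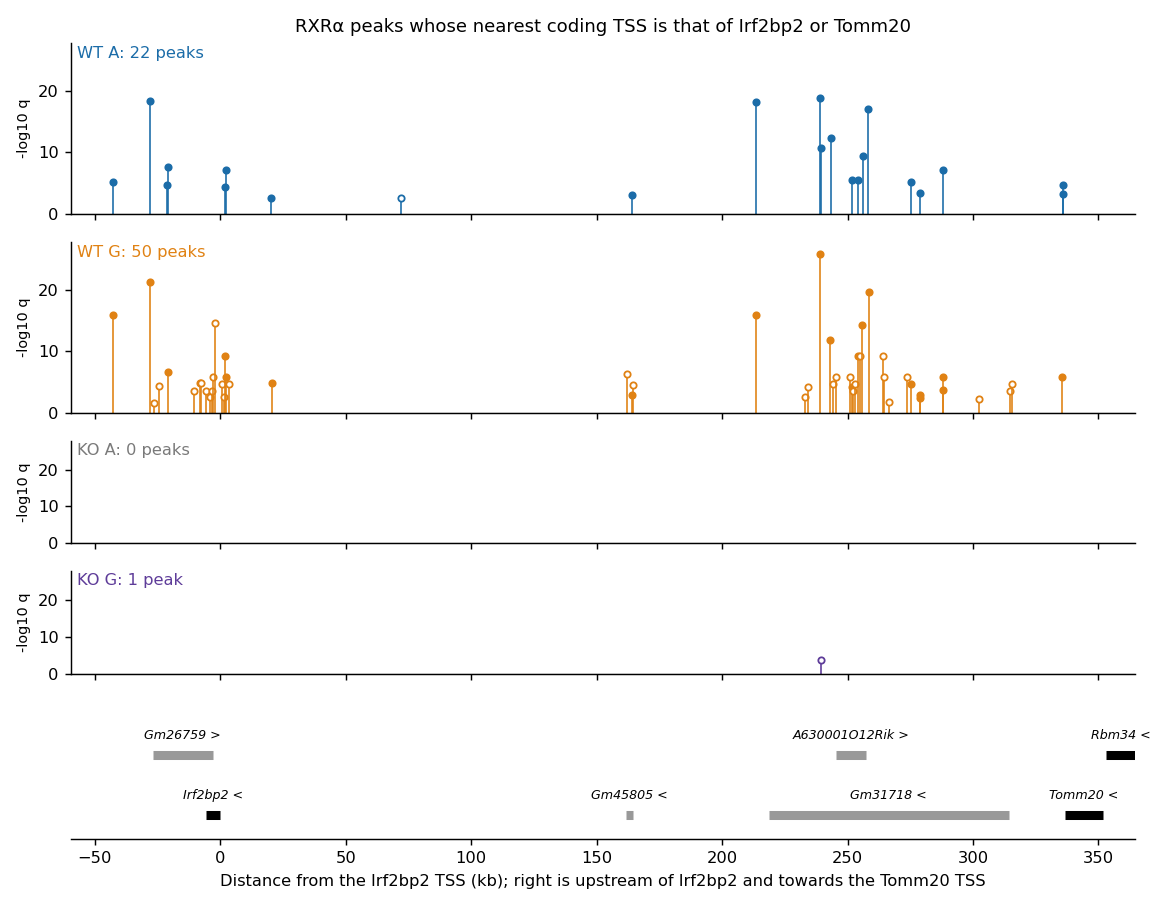
Peaks of the 4 libraries along the neighbourhood, as stems at the summit with −log10 q as height, against the distance from the Irf2bp2 TSS in kb; filled circles overlap a peak of the other library of the same genotype, open circles do not, and bars show genes (black, protein-coding; grey, non-coding). WT A has 22 stems and WT G has 50, most of them near Irf2bp2 or between 233 and 288 kb upstream of it, while KO A has none and KO G has 1.

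Around Irf2bp2 the strongest region was R2, chr8:126565302-126566647, 28.0 kb downstream of the Irf2bp2 TSS and just upstream of the start of the antisense gene Gm26759. Its fold enrichment over the local background was 10.7 in WT A and 13.6 in WT G, with −log10 q (q, the caller's p-value adjusted over the genome) of 18.4 and 21.3. These placed it in the top 4.53% of the WT A list and the top 1.21% of the WT G list. Neither KO list had a peak there.

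R1 (chr8:126551071-126551463, 42.7 kb downstream of the Irf2bp2 TSS, intergenic) was uneven between the WT libraries. Its fold enrichment was 5.88 in WT A and 11.5 in WT G, and its −log10 q 5.22 and 15.9. R3 (chr8:126572398-126573450), in an intron of Gm26759, reached 6.73-fold in WT A and 6.85-fold in WT G.

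Upstream of the gene, R4 (chr8:126595608-126596073) and R5 (chr8:126596131-126596699) were the both-WT regions nearest to a member's TSS, at 1.86 and 2.43 kb upstream of that of Irf2bp2. The fold enrichment of R4 was 5.54 (WT A) and 8.38 (WT G), and that of R5 6.72 and 6.45. R6 (chr8:126614081-126614784), 20.4 kb upstream, had a fold enrichment of 4.16 (WT A, at 98.3% of its list from the strongest) and 5.65 (WT G, at 46.6%). R7 (chr8:126757868-126758291), 164 kb upstream and in an exon of the lincRNA Gm45805, stood at 95.8% and 88.8% of these lists, with 4.56-fold in WT A and 4.40-fold in WT G.

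The Irf2bp2 gene itself carried 5 peaks in WT G and 0 in each of the other libraries. The strongest of these, chr8:126591587-126592210, had its summit in an intron of Irf2bp2, 2.08 kb downstream of the TSS, a fold enrichment of 11.0 and 16 fragments at the summit. With a −log10 q of 14.5 it was also the strongest of the 30 WT G peaks in the neighbourhood without a WT A peak. A further summit lay in the coding exon and 3 in the UTR, with −log10 q of 2.63 to 5.73. The Irf2bp2 promoter (from 1 kb upstream to 100 bp downstream of the TSS) had a peak in WT G only.

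**Figure D2:**
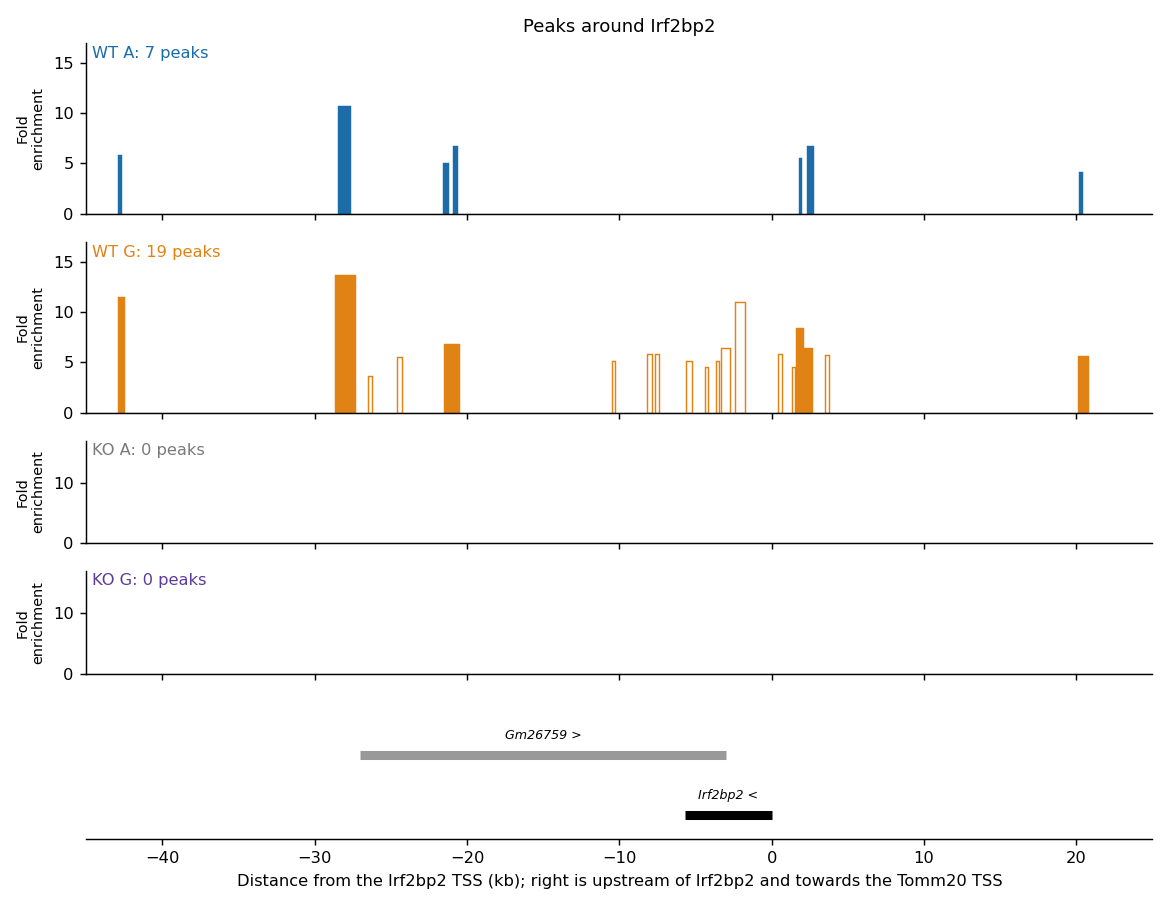
Peaks from 45 kb downstream to 25 kb upstream of the Irf2bp2 TSS in the 4 libraries, as boxes as wide as the peak and as high as its fold enrichment; filled boxes overlap a peak of the other library of the genotype and open boxes do not. WT G shows open boxes over the Irf2bp2 gene, the highest at 11.0-fold, where WT A shows none, and the filled boxes on both sides of the gene are in both WT tracks.

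On the Tomm20 side, the site closest to Irf2bp2 was R8, chr8:126807219-126807808, an isolated intergenic region 138 kb downstream of the Tomm20 TSS. Its fold enrichment was 11.4 in WT A and 11.6 in WT G, with −log10 q of 18.2 and 15.9, and 28 and 17 fragments at the summit. Neither KO list had a peak in it.

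R9, chr8:126831912-126834041, in an intron of Gm31718, was the strongest region of the neighbourhood by the sum of its ranks, and 91st of the 3423 both-WT regions. In WT G it was a single peak of 2130 bp with a fold enrichment of 15.7 and a −log10 q of 25.7, the 53rd of 9766 peaks. In WT A it was split into 2 peaks, of 11.4-fold and 8.30-fold with −log10 q of 18.7 and 10.7. The stronger WT A summit lay 35 bp from that of WT G.

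Further along the distal group, R10 (chr8:126836867-126837740), also in an intron of Gm31718, was enriched 9.07-fold (WT A) and 9.61-fold (WT G). R13 (chr8:126849240-126850313), over an exon of A630001O12Rik, had 7.46 and 10.5. R14 (chr8:126851496-126853347), at the 3' end of A630001O12Rik, had 11.0 and 12.9, with −log10 q of 17.0 and 19.6. It was the only region with DR1 at the scanned summit, which in R14 is that of WT G. R14 was the third of the neighbourhood's regions by rank, after R9 and R2.

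The other regions of the distal group were weaker. R11 (chr8:126845598-126846122) and R12 (chr8:126847952-126848507), in introns of both lincRNAs, had fold enrichments of 5.34 and 5.64 in WT A and of 5.41 and 8.36 in WT G. R15 (chr8:126869024-126869294) and R16 (chr8:126872499-126873185), in introns of Gm31718, had 5.93 and 4.23 in WT A and 5.80 and 4.68 in WT G. R17 (chr8:126881663-126882337), inside the Gm31718 gene record, had 6.23 and 5.95.

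R18 (chr8:126929462-126930072) was the region nearest to Tomm20, within 1 kb of its 3' end and 16.1 kb from its TSS. Its fold enrichment was 5.05 in WT A and 6.43 in WT G, with −log10 q of 4.71 and 5.87. It was the only both-WT region closer than 60 kb to the Tomm20 TSS, the next, R17, lying 63.8 kb away.

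**Figure D3:**
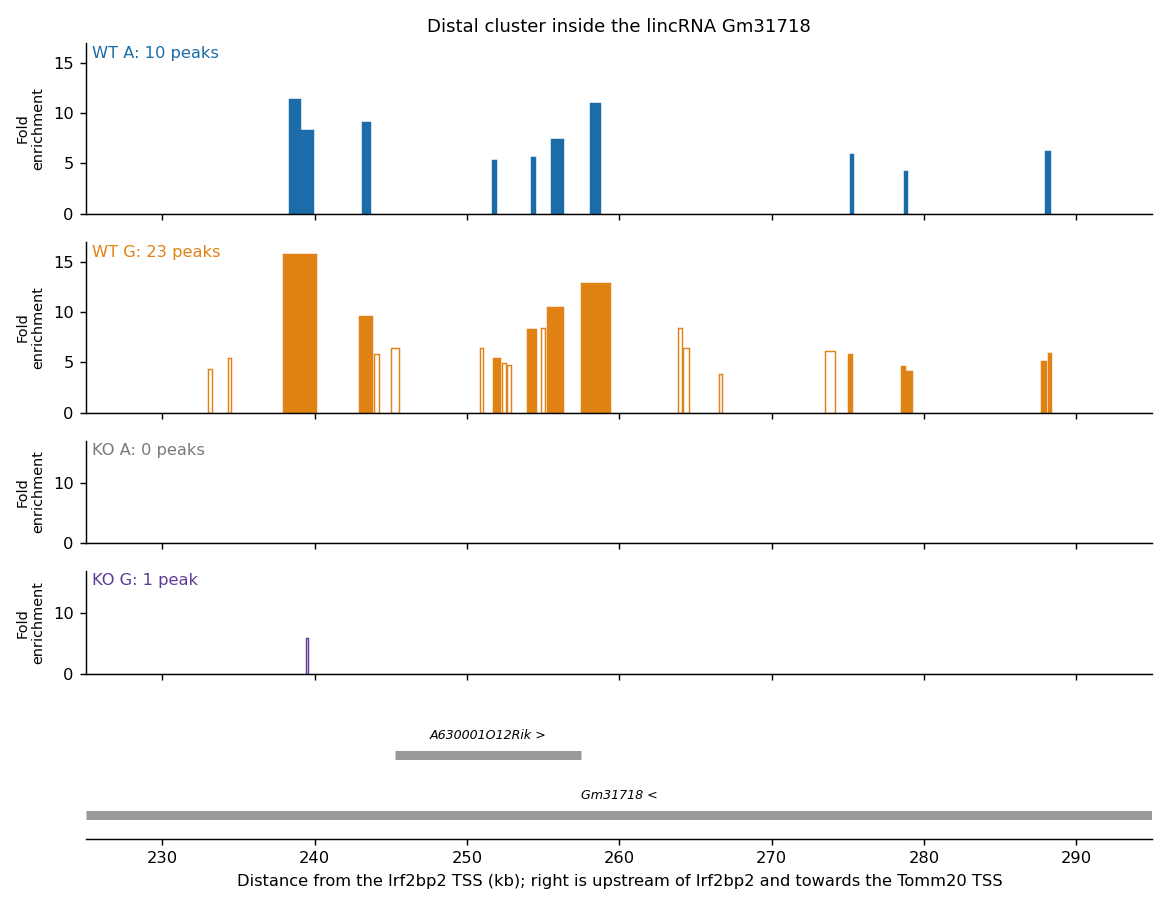
Peaks of the distal group in the 4 libraries, as boxes as wide as the peak and as high as its fold enrichment, against the distance from the Irf2bp2 TSS in kb; filled boxes overlap a peak of the other library of the genotype and open boxes do not. WT A has 10 boxes, all filled, WT G has 23, of which 11 are filled, and the KO G box of 5.96-fold stands below the WT boxes of R9 at 239 kb.

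The attribution to Tomm20 rests on the use of coding TSSs alone. When the TSSs of all annotated genes were offered, A630001O12Rik became the nearest gene of 7 regions (R8 to R14), Gm31718 and Gm26759 of 3 each, Gm45805 and the small nucleolar RNA Gm26397, which lies within Tomm20, of 1 each, and Irf2bp2 of 3 (R4 to R6). Tomm20 was then nearest to 0 of the 18. A nearest TSS does not show on which gene a region acts.

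Which of the WT peaks were found in both libraries was compared next. In WT A, 21 of 22 peaks (95.5%) overlapped a WT G peak, against 83.2% of the whole WT A list. In WT G, 20 of 50 (40%) overlapped a WT A peak, against 36.1% of the whole list. The single WT A peak without a WT G peak (chr8:126666129-126666263, 72.1 kb upstream of Irf2bp2) was faint, with a fold enrichment of 4.76, 11 fragments and a −log10 q of 2.60. The 30 peaks of WT G alone had a median fold enrichment of 5.68 and 5 to 16 fragments at the summit, and the 20 shared ones a median of 6.65.

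Positions and strengths of the shared peaks were compared between the WT libraries. The summits of the strongest WT A and WT G peak in a region lay a median of 134 bp apart in the 18 regions and 96 bp apart in all both-WT regions. Across the 18 regions, fold enrichments in WT A and WT G had a Spearman's rho of 0.83 and −log10 q of 0.77. This describes regions that share a library, an input and a local background, and it is not a test over replicates.

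The strongest shared peaks stood high in their own lists, but the typical member did not. In WT A, 4 of 22 peaks were in the top 10% of the list, and in WT G 8 of 50. The 8 include the strongest WT G peak without a WT A peak (top 3.61%). The median −log10 q was 5.50 in WT A, against 7.14 for the whole list, and 4.71 in WT G, against 4.64. The peaks of the neighbourhood were wider than those of their lists, with medians of 298 bp against 228 bp in WT A and 346 bp against 323 bp in WT G.

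**Figure D4:**
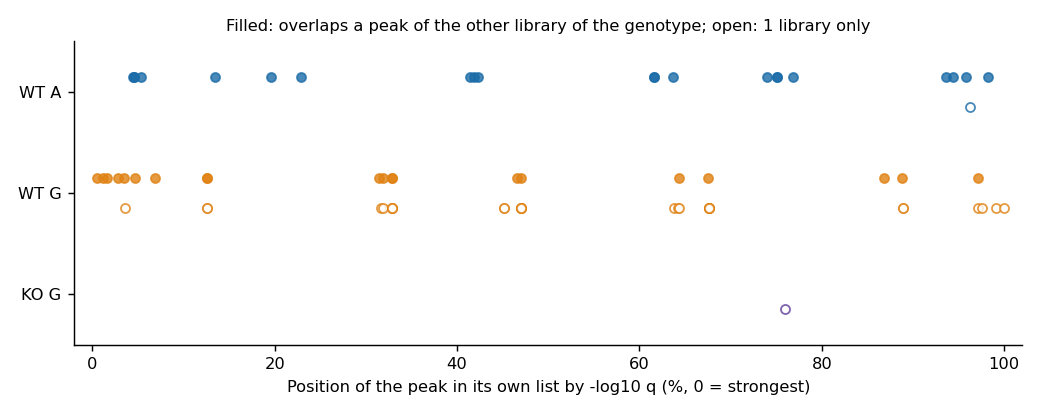
Position of each peak of the neighbourhood in its own list, by −log10 q, from 0% (strongest) to 100% (weakest); filled circles overlap a peak of the other library of the genotype and open circles do not. The WT peaks spread over the whole range, with 4 of WT A and 8 of WT G in the first 10%, and the KO G peak is at 76.0%.

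Fold enrichment is computed by the peak caller with 1 added to the pileup and to the background, which shrinks it more where a library is shallow. The number of fragments at each summit was therefore recovered from fold enrichment and p-value, and divided by the local background without that addition. The genome-wide background came to 1.25 fragments for WT A and 0.551 for WT G, and to 0.966 for KO A and 0.936 for KO G. Relative to WT A, the implied depth of WT G was 0.209, that of KO A 0.572 and that of KO G 0.750. WT G thus had the longest list and the lowest implied depth, with a lowest summit of 5 fragments against 10 in WT A. Intervals below are exact 95% Poisson intervals, which cover counting error only.

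By this ratio WT G was above WT A in 18 of 18 regions, with medians of 19.0 and 9.78, and it was so in 94.1% of all both-WT regions. Fold enrichment was higher in WT G in 14 of the 18, and −log10 q in 9 of them. The intervals of the WT libraries overlapped in all of the 18 but R1. There the ratio was 9.70 in WT A (5.30 to 16.3) and 30.3 in WT G (17.7 to 48.6). The local background was at most 2.39 times the genome-wide one at a WT A peak of the neighbourhood and at most 3.87 times at a WT G peak.

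The genotypes were compared on the same peak lists that picked the locus, so their counts are a description here too. The neighbourhood held 22 and 50 peaks in the WT lists and 0 and 1 in the KO lists, a mean of 36 ± 19.8 (SD, n = 2) against 0.5 ± 0.707 (SD, n = 2), and the genotypes did not overlap. The lists shrank as a whole, from 4751 and 9766 peaks to 83 and 208. At the share of peaks that the neighbourhood took in the WT lists (0.463% and 0.512%), a list as long as that of KO A would hold 0.384 to 0.425 peaks there and one as long as that of KO G 0.963 to 1.06. The KO counts of 0 and 1 were thus close to what the length of these lists gives at the WT share.

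The KO G peak, chr8:126833384-126833512, lay within R9. It was 129 bp wide, with a fold enrichment of 5.96, a −log10 q of 3.88 and 11 fragments at the summit, and stood 158th of 208 in its list. Its summit was 10 bp from that of the weaker of the WT A peaks in R9 and 579 bp from the WT G summit. Its ratio to the local background was 10.9 (5.42 to 19.4), against 13.7 (8.47 to 20.9) at that WT A peak, so these overlapped, and 40.6 (26.0 to 60.4) in WT G.

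Of the 18 both-WT regions, 1 (5.56%) overlapped a KO peak, against 5.87% of all both-WT regions. For KO A the count was 0, against 2.16%, and for KO G 1, against 5.35%. The neighbourhood thus stood near the genome's share.

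Whether a KO library could have shown a region of WT strength was read from its weakest calls. The WT values are those of regions called in both WT lists, a selection that favours high WT values. At the genome-wide background, the lowest ratio called as a peak was 10.4 in KO A and 8.55 in KO G. In both WT libraries, 8 of the 18 regions were above the KO A value and 12 above the KO G value. By the caller's fold enrichment, against the lowest fold called at that background, these numbers were 12 and 15. With the lower ends of the intervals, 4 regions (R2, R8, R9 and R14) stayed above the KO A value, and those 4 and R10 above the KO G value. R9 is the region with the KO G peak. For the other regions the interval reached below the lowest called ratio in at least 1 WT library, so whether a peak of WT strength would have been called in KO is uncertain at this depth.

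**Figure D5:**
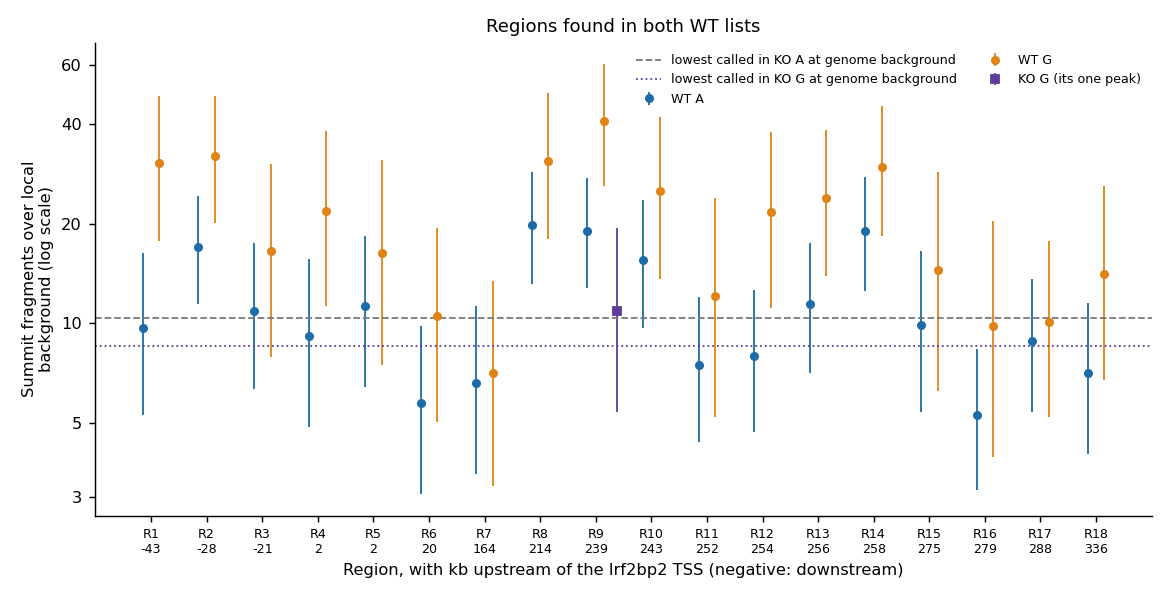
Fragments at the summit over the local background (log scale) in the 18 regions found in both WT lists, in order along the chromosome, with exact 95% Poisson intervals for counting error; horizontal lines mark the lowest ratio called at the genome-wide background in KO A (10.4) and KO G (8.55). WT G is above WT A in each region, R2, R8, R9 and R14 are above both lines with their intervals in both WT libraries, and the square is the KO G peak in R9.

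With 11 both-WT regions, Tomm20 held the 5th rank among the 1933 coding genes with at least 1, level with Dhrs3 and behind Klf6 and Trib1 (16 each), Cebpb (15) and Zfp608 (14). Irf2bp2 was 1 of 22 genes with 7 regions, which shared the 20th rank. The 18 regions of Irf2bp2 and Tomm20 were the most of any adjacent pair of coding genes, level with Trib1 and 4933412E24Rik. Per length, the neighbourhood held 4.25 both-WT regions per 100 kb, against 0.130 in the genome, a density that the choice of the locus by its peaks makes high.

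Other genes of mitochondrial import, and genes grouped here with the IRF2BP family, were followed in the same lists. Of 10 TOM complex genes, Tomm20 alone was the nearest coding gene of a WT A peak, against 10.4% of all coding genes. In WT G 3 were (Tomm20, Tomm6 and Tomm20l), against 16.6%, and in both-WT regions again only Tomm20, against 8.82%. Tomm20 counts here by choice, since its peaks picked it, and the other 9 genes had 0 peaks in WT A and 0 both-WT regions. The Tomm6 peak of WT G lay 67 bp from the Tomm6 TSS, with a −log10 q of 4.64.

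Of 9 genes of the TIM23 complex and inner membrane import, 2, Grpel1 and Hspa9, had a both-WT region, against 8.82% of all coding genes. Grpel1 encodes a nucleotide exchange factor and Hspa9 the mitochondrial HSP70 that it serves. The −log10 q was 5.22 in WT A and 8.04 in WT G at Grpel1, and 7.14 and 2.95 at Hspa9, and these peaks lay within 1 kb of the TSS, whereas no Tomm20 peak did. Timm23, the channel subunit, was nearest to a peak in WT G only, 17.5 kb away.

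Of 9 genes of the IRF2BP family and factors grouped with it here, 6 had a both-WT region (Irf2bp2, Irf2bpl, Irf2, Vgll4, Klf2 and Ets2), against 8.82% of all coding genes. A place in this list does not mean that a factor binds an IRF2BP protein. Irf2bp2 is among them by choice, since its peaks picked it, and without it the count was 5 of 8. The list was drawn up with earlier results of these data known, so its share is not independent evidence. Klf2, a transcription factor that restrains myeloid activation, had 2 of them, with a best −log10 q of 15.8 (WT A) and 15.9 (WT G) at different sites, the first downstream and the second upstream of its TSS. Irf2, which gave the family its name, had 1, at 92.7 kb from its TSS, with −log10 q of 10.2 and 20.3. Irf1 had a peak in WT G only and Irf2bp1 and Nfatc2 had none. In KO A, which reached 0.351% of coding genes, no gene of the 3 lists was nearest to a peak, and in KO G, which reached 0.858%, Tomm20 alone was.

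The limits of the neighbourhood fell in peak-free stretches. On the left, the outermost peaks inside were those of R1. The nearest outside belonged to Tarbp1, which encodes an RNA methyltransferase: in WT A a peak of 7.99-fold 19.7 kb from the Tarbp1 TSS, and in WT G a peak of 5.43-fold 42.2 kb from it. On the right, the outermost peaks inside were those of R18. The nearest outside belonged to Pard3, 581 kb beyond the limit, at 7.89-fold in WT A and 5.80-fold in WT G. In the KO lists no peak of chromosome 8 lay to the right, and the nearest on the left was at Cdh1, 19922 kb from the limit.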

How the data were processed

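HT-ChIPmentation peak lists of RXRα from 2 WT and 2 KO libraries of alveolar macrophages were analysed, and 1 input sample was not analysed here. Per the study's methods, the authors' pipeline ran Cutadapt 1.7.1 on the reads, Bowtie2 against mm10, a duplicate filter and samtools 0.1.18 for proper pairs, and peaks were called in each library against the input with MACS3 3.0.0a5 (q of 0.05). The deposited lists give for each peak the fold enrichment at the summit, the −log10 p and −log10 q, and a score, which the authors' caller wrote as 10 times −log10 q. The study compared genotypes on read counts, which the lists do not hold, so numbers, positions and overlaps of peaks were compared here.

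Peak midpoints were assigned to the nearest TSS of the protein-coding transcripts in the basic set of GENCODE M21. WT peaks sharing at least 1 bp were merged. The strongest peak of a library stands for it in a region. Fragments at the summit were solved as whole numbers from fold enrichment and −log10 p (all peaks had a solution). Solutions with a background under the genome-wide value were dropped. For the few peaks with several solutions left, the one closest to a whole number of fragments was kept. Relative depth was the genome-wide background, divided by the caller's scaling of the ChIP pileup (0.884 in WT A, 1 in the others) and by the fragment length, taken as the width of a list's narrowest peak. Motifs were scanned within 50 bp of the summit of the WT peak with the better rank relative to its list, in RefSeq's GRCm38 sequence. Regions named with full values and sequence were the 6 with the smallest sum of ranks and any with a KO peak. Overlap, motif and fragment functions were tested on simulated data. The computations used Python 3.11.15, pandas 2.3.3, scipy 1.17.1 and pysam 0.24.0. For RXRα binding the study gives n = 2 per genotype. The sources used here do not say whether each library came from a single animal or a pool, so the spread between libraries may be technical. Members and gene lists were chosen with earlier results of these data known. The alternatives tried were other overlap rules, q thresholds, sets of TSSs, list lengths, merging, motif settings and leaving out each library.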

Additional observations from a re-analysis of the deposited data

How the results depend on the processing

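Of 64 alternative values of 10 results, 42 stayed within 1.5 times the reported value and 22 did not. Only the WT minus KO difference could change sign, since the other results are counts, and it did not. When the TSSs of all genes were offered, non-coding ones included, 4 peaks of WT A, 14 of WT G and 0 of KO G stayed in the neighbourhood, a WT minus KO difference of 9 against 35.5, and Irf2bp2 was nearest to 3 both-WT regions and Tomm20 to 0. With a −log10 q of at least 5 these numbers were 14, 22 and 0, a difference of 18, with 11 both-WT regions, 4 at Irf2bp2 and 7 at Tomm20, of which 0 had a KO peak. Holding WT G to the strongest 4751 peaks left 25 of them here, against 22 in WT A. Asking for an overlap of at least 50% of both peaks left 9 both-WT regions in place of 18, and 0 in place of 1 with a KO peak. DR1 was found at 0 summits with at most 1 mismatch, at 3 with at most 3, and in 4 whole regions, in place of 1.

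Leaving out each library in turn gave WT minus KO differences from 21.5 (without WT G) to 49.5 (without WT A), and 0 (without KO G) to 1 both-WT region with a KO peak. The letters A and G recur in both genotypes, but no source says that they pair the libraries. With the letter as a replicate block the difference was 35.5, as without it, and with 2 pairs of peak counts no correlation of the letters could be checked. The 8 WT G peaks and 4 WT A peaks in the top 10% of their lists rest on 2 libraries that differ in depth, and summits of 5 to 30 fragments leave wide counting intervals, so for regions near the KO calling limits a loss is uncertain.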
